A study of Mus musculus with 6 samples.

Results

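The genes described here are the immunoglobulin heavy and light chain segments, the pieces of the genome from which antibodies are built. They were taken as every gene of the counts table whose type in the GENCODE M21 annotation is an immunoglobulin constant (C), variable (V), diversity (D) or joining (J) gene. The rule found 156 genes among the 23508 of the table: 12 constant genes, 135 V genes and 9 J genes. The annotation lists 264 genes of these types, of which 13 are C, 218 V, 19 D and 14 J genes, and those outside the table, all D genes and the lambda J genes among them, were not analysed here. By locus, the heavy chain gave 8 C, 56 V and 4 J genes, kappa 1 C, 76 V and 5 J genes, and lambda 3 C and 3 V genes.

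RNA was sequenced from 6 mouse tumors grown from 4T1, a mammary carcinoma line that arose in a BALB/c mouse and models triple-negative breast cancer. The labels place 3 of them with the peak of neural activity, on the day when it first occurred, and 3 before the peak. No further treatment or genetic change is labelled in either group. The labels give neither the host's strain, age and sex nor the day of collection, so tumor age and the peak cannot be told apart. Nor do they say whether each tumor came from its own animal, and p-values then reflect the spread among these 6 tumors alone, which may be technical. Total counts ran from 10591067 to 14549357 per library.

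An antibody holds a pair of heavy and a pair of light chains. A developing B cell joins V, D and J segments into a heavy chain exon and V and J segments into a kappa or lambda exon, and the joined exon is spliced to a constant gene. Naive B cells make Ighm and Ighd, the constant regions of IgM and IgD, and activated cells can switch to Ighg3, Ighg1, Ighg2b, Ighg2c, Ighe or Igha, while plasma cells secrete antibody in bulk. In bulk tissue, fewer B lineage cells and less immunoglobulin RNA per cell cannot be told apart. The reads were aligned to a genome built from C57BL/6, which carries Ighg2c where BALB/c mice carry Ighg2a. How many reads of another strain's alleles were counted at Ighg2c, or at any V gene, was not tested.

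The immunoglobulin genes together held 5394, 8260 and 4734 counts in with-peak replicates 1, 2 and 3, against 620, 489 and 11158 counts in before-peak replicates 1, 2 and 3. These were 0.0371%, 0.0635% and 0.0447% of all counts with the peak and 0.00506%, 0.00386% and 0.0959% before it. Gene by gene, 76 of the 156 had their highest CPM in before-peak replicate 3 (7 constant, 61 V and 8 J genes), against 19, 37 and 23 in with-peak replicates 1, 2 and 3, 0 in before-peak replicate 1 and 1 in before-peak replicate 2. By the sum, every with-peak tumor lay above before-peak replicates 1 and 2 and below before-peak replicate 3, and the groups overlap. In CPM, counts scaled to library size with TMM normalization, the sum averaged 495 ± 138 with the peak and 339 ± 511 before it (SD, n = 3 each).

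**Figure D1:**
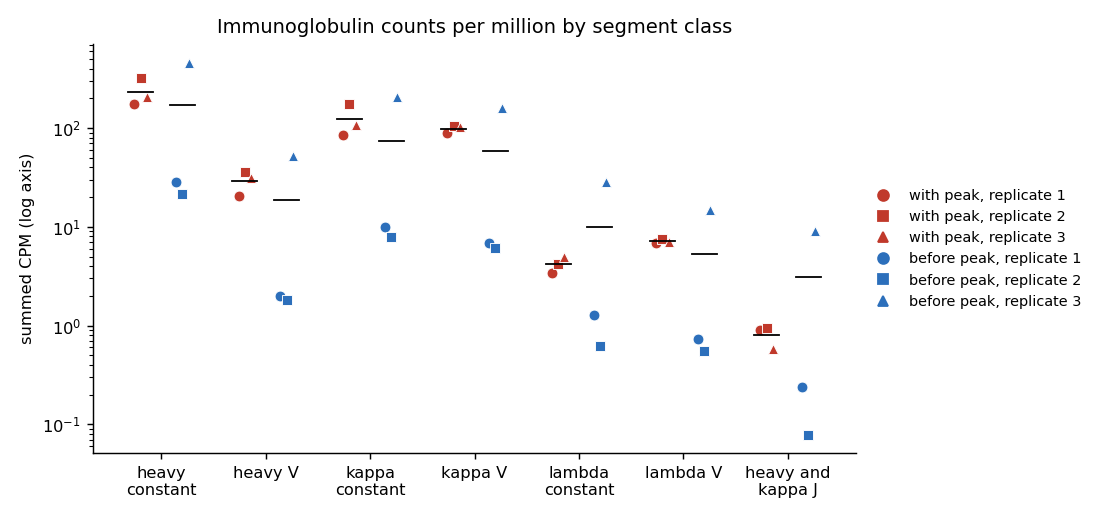
Summed CPM of the immunoglobulin classes in each tumor, on a log axis, with 3 with-peak tumors in red and 3 before-peak tumors in blue, marker shapes for replicate numbers and black bars for group means. Before-peak replicate 3 is the highest point for constant, V and J genes, and before-peak replicates 1 and 2 lie below the with-peak tumors for the C and V classes.

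Before-peak replicate 3 stood apart in other genes of B cells and lymphoid tissue, and results are therefore given with and without it. The summed level of 16 B cell genes was 103, 110 and 149 CPM with the peak and 87.8, 63.1 and 742 CPM before it. Follicular B cell markers, such as Cr2 and Fcer2a, summed to 25.6, 17.9 and 56.8 CPM with the peak and 16.9, 2.90 and 440 CPM before it. Lymph node stroma markers (Ccl19, Ccl21a, Cxcl13, Glycam1 and Madcam1) summed to 16.8, 7.99 and 23.6 CPM with the peak and 4.41, 1.57 and 87.9 CPM before it. Both lists were thus highest in before-peak replicate 3, whose high-endothelial mucin Glycam1 had 497 counts against 3 to 67 in with-peak tumors and 24 and 0 in the other before-peak tumors. T and NK cell markers had the same highest library, at 77.2, 58.4 and 70.9 CPM with the peak and 20.5, 50.2 and 234 CPM before it. The part of lymph node or lymphoid tissue in these values was not tested.

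Carcinoma markers were present in all tumors, at 3111, 2505 and 3835 CPM with the peak and 3856, 4127 and 3228 CPM before it. Macrophage markers were 1943, 2818 and 1799 CPM with the peak and 1743, 1300 and 1457 CPM before it. Erythroid markers were 277, 1457 and 2153 CPM with the peak and 227, 137 and 250 CPM before it. For the macrophage and erythroid sums every with-peak tumor lay above every before-peak tumor, whereas the carcinoma sums overlap. Gene by gene, C1qa, C1qb, C1qc, Mrc1, Hba-a2 and Slc4a1 overlap. The other genes of these macrophage and erythroid lists do not. Skeletal muscle markers also overlap, at 216, 1224 and 1240 CPM with the peak and 237, 74.7 and 47.9 CPM before it.

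The comparison of with-peak against before-peak tumors was run with the edgeR quasi-likelihood test over 16755 genes that passed a filter on low counts. Of the 156 immunoglobulin genes, 55 passed that filter: all 12 constant genes, 6 heavy, 35 kappa and 2 lambda V genes, and no J gene. At an adjusted p under 0.05 edgeR called 0 of the 55 higher and 0 lower with the peak, where 0% of all tested genes were called in either direction. At an unadjusted p under 0.05 it gave 5 higher and 0 lower, against a background of 6.12% of all tested genes higher and 3.38% lower. DESeq2 called 1 of them higher (Ighg3) where it called 1.44% of all genes, and at an unadjusted p under 0.05 it gave 8 higher and 0 lower, against 6.65% and 2.74% of all genes. Of the 55, 41 had a positive log2 fold change and 14 a negative one, with a median of 0.76. Over all tested genes 47.7% were positive and the median was -0.02. With limma-voom 53 of the 55 were positive and 2 negative, with a median of 2.49, against 48.2% of all genes positive. Limma-voom gave 21 members higher and 0 lower at an unadjusted p under 0.05, against 6.62% and 3.52% of all genes, and called 0 after adjustment.

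Leaving out before-peak replicate 3 moved these values more than any other tumor did. The edgeR fit of 3 with-peak against the remaining before-peak tumors tested 59 immunoglobulin genes and called 3 higher (Ighg3, Igkc and Igkv3-4), where 0.0752% of all 17287 genes were called higher. In that fit 58 of the 59 had a positive log2 fold change, against 49.5% of all genes, and the median was 4.08. The exception was Igha. An unadjusted p under 0.05 was reached by 50 of them, higher, and by 0, lower, against 7.33% and 3.59% of all genes. V and C genes of the same antibody share transcripts, and the filter admits genes through the libraries where they are high, so these counts describe the tested genes and not all members. Before-peak replicate 3 also held the highest CPM of 76 of the 156 members. Leaving it out raised the fold changes of many members by construction, so the values of that fit are not support for a group difference.

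Of the 12 constant genes, Ighg2b, Ighg2c and Ighg3 were those with every with-peak tumor above every before-peak tumor, as were 8.13% of all tested genes. They encode the IgG subclasses that accompany Ighg1 in the mouse, and all lie on the minus strand of chromosome 12 of GRCm38, the assembly that mm10 names. Their hinge exons, the flexible stretch that joins the heavy chains through disulfide bonds, are shown with that of Ighg1 because they mark the subclasses as separate genes. The sequences come from GENCODE M21 transcripts on the minus strand of GRCm38, and capitals mark in-frame cysteine codons (TGT or TGC).
Ighg1 (chr12:113329844-113329882): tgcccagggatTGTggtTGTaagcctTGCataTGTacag
Ighg2b (chr12:113307261-113307326): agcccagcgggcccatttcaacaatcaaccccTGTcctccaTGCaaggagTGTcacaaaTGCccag
Ighg2c (chr12:113288263-113288325): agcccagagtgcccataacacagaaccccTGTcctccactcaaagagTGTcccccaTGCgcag
Ighg3 (chr12:113360529-113360576): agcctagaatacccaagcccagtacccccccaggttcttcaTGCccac
These exons are 39, 66, 63 and 48 bases long and hold 4, 4, 3 and 1 cysteine codons in Ighg1, Ighg2b, Ighg2c and Ighg3. Over their transcripts Ighg2b and Ighg2c were 86.4% identical, the closest pair of the IgG genes, and Ighg1 shared 73.9% to 77.2% with the others.

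Ighg3 (ENSMUSG00000076615, chr12:113356224-113361232) had 54, 44 and 72 counts with the peak and 1, 0 and 11 counts before it. All with-peak tumors were above all before-peak tumors, and before-peak replicate 3 was the highest of its group. The level was 4.74 ± 1.95 CPM with the peak and 0.33 ± 0.51 CPM before it (SD, n = 3 each). The log2 fold change was 3.81 (SE 0.94), with an unadjusted p of 0.0036 and an edgeR adjusted p of 0.285. DESeq2 gave an adjusted p of 8.18e-04, and edgeR without before-peak replicate 3 gave a log2 fold change of 6.57 with an adjusted p of 0.0460. That fitted value stands against 1 and 0 counts and depends on the prior count.

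Ighg2b (ENSMUSG00000076613, chr12:113302965-113307933) had 347, 164 and 140 counts with the peak and 1, 16 and 44 counts before it. The groups again did not overlap. Its level was 16.9 ± 6.43 CPM with the peak and 1.67 ± 1.83 CPM before it, a log2 fold change of 3.35 (SE 0.91) with an edgeR adjusted p of 0.390. Without before-peak replicate 3 the log2 fold change was 4.64 and the edgeR adjusted p 0.120.

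Ighg2c (ENSMUSG00000076612, chr12:113285325-113288932) had 291, 155 and 184 counts with the peak and 3, 54 and 21 counts before it. Here before-peak replicate 2 was the highest of its group, and it lay below all with-peak tumors. The level was 16.8 ± 4.23 CPM with the peak and 2.07 ± 2.01 CPM before it, a log2 fold change of 3.01 (SE 0.77) with an edgeR adjusted p of 0.354. Without before-peak replicate 2 it was 4.07, with an edgeR adjusted p of 0.107, and without before-peak replicate 3 it was 2.90, with an edgeR adjusted p of 0.384. Among all 55 tested immunoglobulin genes, 4 had every with-peak tumor above every before-peak tumor (the 3 IgG genes and Igkv4-53) and 0 the reverse, against 8.13% and 7.38% of all tested genes. The share of members, 4 of 55, is near that background. Of the 101 immunoglobulin genes below the filter, 4 had every with-peak tumor above every before-peak tumor in CPM (Igkv2-112, Ighv2-6-8, Ighv6-3 and Ighv1-66) and 0 the reverse, against 5.89% and 5.32% of all genes below the filter. The macrophage and erythroid marker sums, though not each gene in them, had every with-peak tumor above every before-peak tumor. Their part in the IgG values was not tested.

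**Figure D2:**
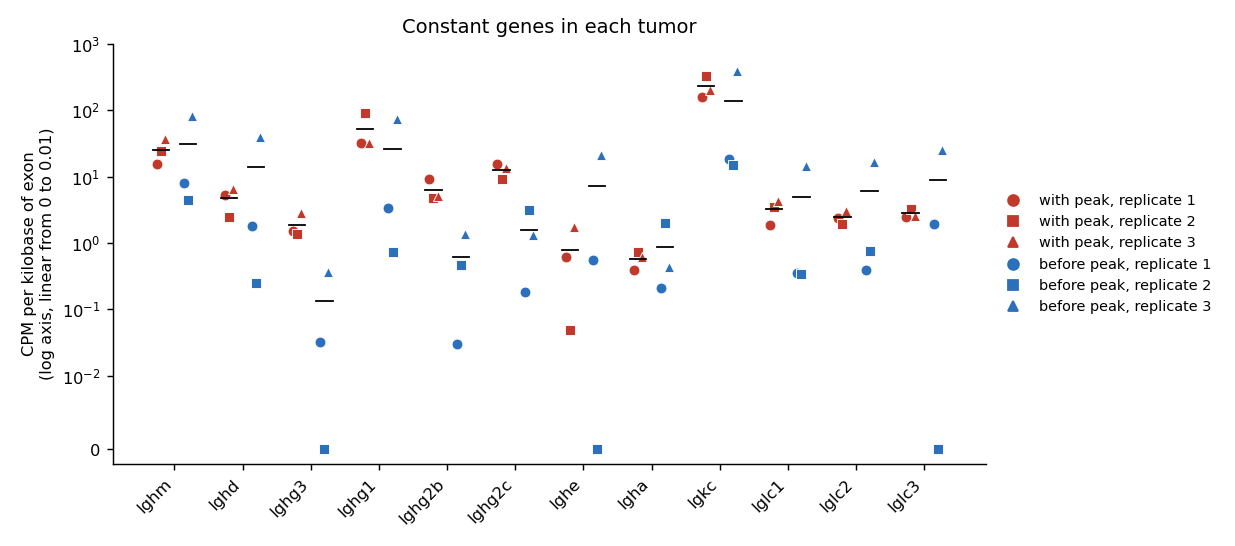
CPM per kilobase of exon for each constant gene in each tumor, on a log axis that is linear at its lowest end. With-peak tumors are in red and before-peak tumors in blue, with marker shapes for replicate numbers and black bars for group means. Ighg2b, Ighg2c and Ighg3 have all with-peak points above all before-peak points, before-peak replicate 2 is highest in Igha and with-peak replicate 2 in Ighg1, and before-peak replicate 3 lies at the top of the other genes.

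Ighg1 (ENSMUSG00000076614, chr12:113325240-113330523), the IgG subclass favoured by interleukin 4, had 1191, 3045 and 848 counts with the peak and 107, 24 and 2285 counts before it. With-peak replicate 2 was the highest tumor and before-peak replicate 3 came next, so the groups overlap. The level was 135 ± 89.9 CPM with the peak and 67.0 ± 107 CPM before it, a log2 fold change of 1.01 (SE 1.63) with an edgeR adjusted p of 0.882. Without before-peak replicate 3 it was 4.69, with an edgeR adjusted p of 0.334, and without with-peak replicate 2 it was 0.30. Per kilobase of exon, the summed Ighg2b, Ighg2c and Ighg3 level was 0.806, 0.167 and 0.672 times that of Ighg1 with the peak, and 0.0735, 5.04 and 0.0416 times before it. With secreted transcript lengths the ratios were 0.563, 0.116 and 0.454 with the peak and 0.0455, 2.82 and 0.0323 before it. The high ratio of before-peak replicate 2 rests on 70 counts over 24 of Ighg1.

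Ighm (ENSMUSG00000076617, chr12:113418558-113422730) had 423, 577 and 718 counts with the peak and 186, 106 and 1848 counts before it. Ighd (ENSMUSG00000104213, chr12:113406604-113416324), which naive B cells make from the same transcript as Ighm by splicing, had 142, 59 and 127 counts with the peak and 42, 6 and 897 before it. In both genes before-peak replicate 3 was the highest tumor and the other before-peak tumors the lowest. The log2 fold change of Ighm was -0.30 (SE 1.21, edgeR adjusted p = 0.957), and 2.05 without before-peak replicate 3 (edgeR adjusted p = 0.201). The log2 fold change of Ighd was -1.55 (SE 1.69, edgeR adjusted p = 0.813), and 2.22 without before-peak replicate 3 (edgeR adjusted p = 0.390). Per kilobase, Ighd was 0.333, 0.102 and 0.176 times the level of Ighm with the peak and 0.224, 0.0562 and 0.482 times before it. With secreted transcript lengths these ratios were 0.625, 0.190 and 0.329 with the peak and 0.420, 0.105 and 0.904 before it. With either length the highest ratio was in before-peak replicate 3.

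Ighe (ENSMUSG00000087642, chr12:113269260-113273248), the IgE constant gene, had 14, 1 and 28 counts with the peak and 11, 0 and 396 counts before it. It was above 28 counts in before-peak replicate 3 only. Its log2 fold change was -3.20 (SE 2.22, edgeR adjusted p = 0.719), and 1.46 without that tumor (edgeR adjusted p = 0.783). Igha (ENSMUSG00000095079, chr12:113254830-113260236), which encodes the IgA of mucosal secretions, had 15, 25 and 17 counts with the peak and 7, 67 and 14 counts before it. Of all 156 members it was the only gene whose highest CPM was in before-peak replicate 2. Its log2 fold change was -0.59 (SE 0.76, edgeR adjusted p = 0.839), and 0.84 without before-peak replicate 2.

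The share of each isotype was taken from counts per kilobase of exon over the 8 heavy constant genes, with a Wilson 95% interval that covers counting error only. These lengths are those of all annotated exons, which exceed the secreted transcript by different factors (2592 against 1076 bases for Ighg1, 1886 against 1493 for Ighm). IgM and IgD together made up 26.1%, 19.6% and 43.9% with the peak and 69.1%, 42.3% and 55.3% before it. The mean was 29.9% ± 12.6 with the peak and 55.6% ± 13.4 before it (SD, n = 3 each). With-peak replicate 3 (41.8% to 46.1%) and before-peak replicate 2 (36.5% to 48.2%) overlap within their intervals, and the other before-peak tumors lie above all with-peak tumors.

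Ighg1 made up 40.2%, 68.4% and 32.1% of heavy constant RNA with the peak and 23.6%, 6.59% and 33.6% before it. The lowest with-peak tumor and the highest before-peak tumor were close, and the groups overlap. Ighg2b, Ighg2c and Ighg3 together made up 32.4%, 11.4% and 21.6% with the peak and 1.74%, 33.3% and 1.40% before it. Before-peak replicates 1 and 3 were below all with-peak tumors in this share, whereas before-peak replicate 2 was level with with-peak replicate 1 within counting error. Its 273 heavy constant counts give an interval of 27.5% to 39.5%, and which of these tumors is higher depends on the length used: by secreted transcript with-peak replicate 1 had 28.1% and before-peak replicate 2 had 28.0%, and by counts alone 27.9% and 25.6%.

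Before-peak replicates 1 and 3 thus shared a low part of these IgG genes although their heavy constant counts were 358 and 5516. Before-peak replicate 2 differed from both: Ighg2c made up 29.0% of its heavy constant RNA and Igha 17.9%, where Igha reached at most 1.50% in the other tumors. With secreted transcript lengths, a setting chosen after the data were seen, Igha was the larger of the pair in before-peak replicate 2, at 27.1% against 21.6% for Ighg2c, and Igha reached at most 2.15% in the other tumors. With the same lengths, IgM and IgD made up 20.8%, 12.6% and 35.1% with the peak and 59.9%, 34.9% and 48.6% before it.

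**Figure D3:**
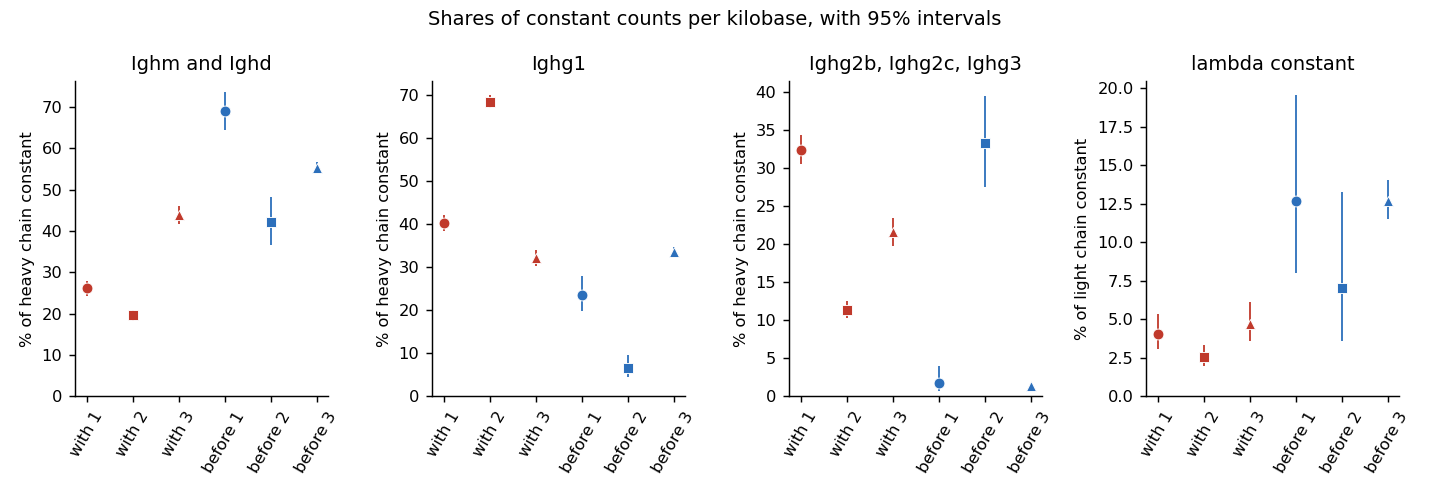
Shares of heavy constant RNA (IgM with IgD, Ighg1, and Ighg2b with Ighg2c and Ighg3) and the lambda share of light constant RNA, in percent per kilobase, by tumor, with Wilson 95% intervals as error bars. With-peak tumors are on the left. The lambda panel has all with-peak values, up to 4.69%, below all before-peak values, from 7.03%, and before-peak replicate 2 stands out in the IgG panels.

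Igkc (ENSMUSG00000076609, chr6:70726435-70726966, plus strand), the kappa constant gene, had 1207, 2231 and 1099 counts with the peak and 123, 100 and 2463 counts before it. Its level was 122 ± 47.0 CPM with the peak and 74.3 ± 113 CPM before it, a log2 fold change of 0.72 (SE 1.38) with an edgeR adjusted p of 0.903. Before-peak replicate 3 was the highest tumor and the other before-peak tumors were the lowest. Without it the log2 fold change was 3.78 (SE 0.37) and the edgeR adjusted p 0.0465. With all tumors limma-voom gave 2.24, not called. Per kilobase, Igkc was 1.98, 2.44 and 2.03 times the summed heavy constant level with the peak and 1.32, 1.34 and 1.76 times before it, so the groups did not overlap in this ratio. With secreted transcript lengths it was 1.02, 1.15 and 1.13 with the peak and 0.783, 0.837 and 0.954 before it, again without overlap.

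The lambda constant genes lie on the minus strand of chromosome 16. Iglc1 (ENSMUSG00000105906, chr16:19061618-19062071) had 12, 20 and 20 counts with the peak and 2, 2 and 78 before it. Iglc2 (ENSMUSG00000076937, chr16:19198396-19200351) had 21, 15 and 19 counts with the peak and 3, 6 and 123 before it. Iglc3 (ENSMUSG00000105547, chr16:19065230-19065681) had 16, 19 and 12 counts with the peak and 11, 0 and 136 before it. All 3 genes were highest in before-peak replicate 3. Their log2 fold changes were -0.65 for Iglc1, -1.28 for Iglc2 and -1.68 for Iglc3, with edgeR adjusted p-values of 0.905, 0.795 and 0.772. Without before-peak replicate 3 they were 3.10, 2.03 and 1.50, with edgeR adjusted p-values of 0.227, 0.349 and 0.653. Iglc2 and Iglc3 were 95.4% identical, so reads may be split between them, and an annotated antisense gene, 2010309G21Rik, overlaps Iglc1, Iglc3 and Iglv1 in these libraries without strand.

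Lambda made up 4.07%, 2.57% and 4.69% of light constant RNA per kilobase with the peak and 12.7%, 7.03% and 12.7% before it. The mean was 3.78% ± 1.09 with the peak and 10.8% ± 3.28 before it (SD, n = 3 each), and no with-peak tumor reached a before-peak tumor. The interval of before-peak replicate 2, 3.60% to 13.3% on few counts, overlaps the with-peak values, whereas that of before-peak replicate 3 was 11.5% to 14.0%. Counted by V genes, the lambda share was 7.16%, 6.75% and 6.51% with the peak and 9.47%, 8.33% and 8.35% before it. The order of the groups was kept and the gap was smaller. Before-peak replicates 1 and 2 rest on 9 and 7 lambda V counts here, and their intervals, 5.06% to 17.0% and 4.10% to 16.2%, cover all with-peak values. That of before-peak replicate 3, 7.25% to 9.61%, lies above the with-peak values but overlaps their intervals. For each 100 lambda constant counts there were 198, 180 and 143 lambda V counts with the peak and 56.3, 87.5 and 52.2 before it, which also do not overlap.

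V genes gave 1648, 1893 and 1444 counts with the peak and 120, 107 and 2733 before it. Kappa V genes held 88.2, 105 and 102 CPM with the peak and 6.90, 6.03 and 161 CPM before it. Heavy V genes held 20.6, 35.6 and 31.2 CPM with the peak and 2.01, 1.80 and 52.2 CPM before it. Lambda V genes held 6.80, 7.60 and 7.08 CPM with the peak and 0.722, 0.548 and 14.7 CPM before it. In each locus the with-peak tumors lay between before-peak replicates 1 and 2 below and before-peak replicate 3 above.

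The ends of the V exons that led a locus are shown because V segments end within the antigen-binding loop CDR3 or near its start. Reads across the joint hold joined sequence that the genome lacks. The last 45 bases of each V exon are from GENCODE M21 on GRCm38, and capitals mark the last in-frame cysteine codon, the conserved residue at the border of the loop. The kappa and lambda exons run further past this codon than the heavy exons, and so hold more of the loop.
Ighv1-67 (chr12:115603940-115603984, minus strand): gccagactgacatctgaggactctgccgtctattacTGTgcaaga
Ighv2-6-8 (chr12:113796143-113796187, minus strand): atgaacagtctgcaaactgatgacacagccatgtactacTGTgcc
Ighv2-9 (chr12:113879096-113879140, minus strand): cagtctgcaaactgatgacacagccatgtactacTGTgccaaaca
Ighv9-3 (chr12:114140692-114140736, minus strand): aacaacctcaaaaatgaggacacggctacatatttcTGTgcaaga
Igkv13-85 (chr6:68930269-68930313, minus strand): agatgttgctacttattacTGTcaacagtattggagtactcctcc
Igkv3-10 (chr6:70573186-70573230, plus strand): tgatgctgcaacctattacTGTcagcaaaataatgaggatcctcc
Igkv6-23 (chr6:70260409-70260453, minus strand): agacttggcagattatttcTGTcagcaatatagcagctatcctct
Iglv1 (chr16:19085017-19085061, minus strand): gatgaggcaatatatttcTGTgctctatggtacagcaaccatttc
V genes resemble each other: 24 of the 135 were at least 97% identical to another annotated V gene and 74 at least 95%, so counts of single V genes are uncertain to that extent.

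Kappa V genes with at least 1 count numbered 57, 64 and 72 of 76 with the peak and 36, 18 and 75 before it. Heavy V genes with at least 1 count numbered 37, 46 and 40 of 56 with the peak and 13, 7 and 50 before it. Before-peak replicates 1 and 2, with the fewest V counts, also had the fewest V genes in both loci. Thinned by calculation to the smallest total, 77 kappa V counts, the expected number of kappa genes was 30.3, 34.2 and 39.6 with the peak and 34.3, 18 and 39.5 before it. At 23 heavy V counts it was 15.1, 16.2 and 15.1 with the peak and 12.4, 7 and 16.1 before it. At equal counts the groups overlap in both loci, and before-peak replicate 2 had the lowest expected number. Reads are not independent molecules, and few counts may come from fewer transcripts. Equal counts are therefore not equal depth, and the low values of before-peak replicate 2 do not show lower diversity.

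The effective number of V genes, the exponential of the Shannon entropy, counts how many equally used genes would give the same diversity. It was 29.7, 39.8 and 51.0 for kappa with the peak and 29.1, 14.0 and 51.5 before it. For the heavy chain it was 26.0, 32.3 and 26.8 with the peak and 10.8, 5.33 and 33.0 before it. Before-peak replicates 1 and 2 hold 25 and 23 heavy V counts, against 294 to 626 in the other tumors, and 86 and 77 kappa V counts. An effective number is lowered by so few counts, so the values of before-peak replicates 1 and 2 cannot be set against the others. With-peak replicate 1 had the lowest kappa number of its group on 1257 kappa V counts, and at 77 counts its expected number of genes was below that of before-peak replicate 1, 30.3 against 34.3. At 1049 kappa V counts the expected number of genes was 56.5, 63.0 and 72 with the peak and 73.4 in before-peak replicate 3.

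**Figure D4:**
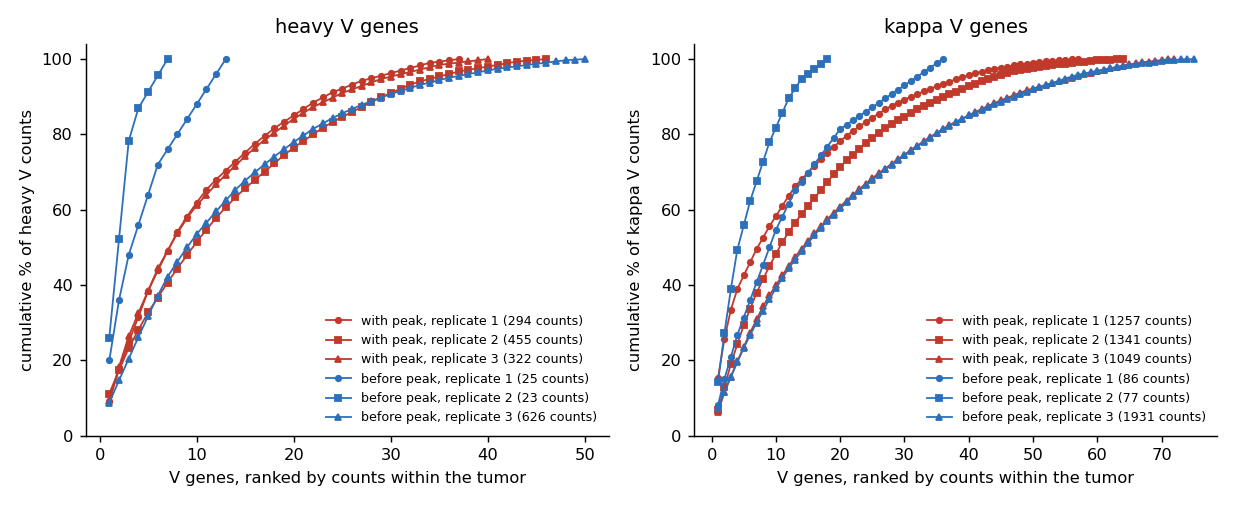
Cumulative percent of heavy and kappa V counts against the rank of the V gene in each tumor, with-peak tumors in red and before-peak tumors in blue. The kappa curve of with-peak replicate 1 starts highest, at 15.4% for its leading gene, and the curves of before-peak replicates 1 and 2 end after 36 and 18 kappa genes on 86 and 77 counts.

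The leading kappa gene of with-peak replicate 1 was Igkv6-23, with 193 counts or 15.4% of its kappa V counts (13.5% to 17.5%). Igkv6-23 had 193, 28 and 66 counts with the peak and 6, 11 and 42 before it. It led with-peak replicate 3 as well, at 6.29%, and before-peak replicate 2, at 14.3% on 11 counts. Its level was 7.38 ± 5.73 CPM with the peak and 1.61 ± 1.64 CPM before it, and the groups overlap (log2 fold change 2.20, SE 0.90, edgeR adjusted p = 0.519). The log2 fold change was 1.40 without with-peak replicate 1 and 3.44 without before-peak replicate 3, with edgeR adjusted p-values of 0.637 and 0.218.

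Igkv3-10 had 24, 92 and 36 counts with the peak and 7, 0 and 27 before it, and it led with-peak replicate 2 at 6.86% and before-peak replicate 1 at 8.14%. It was 97.8% identical to Igkv3-5. Igkv13-85 had 0, 48 and 9 counts with the peak and 1, 0 and 144 before it, and led before-peak replicate 3 at 7.46%. Igkv10-96 had 131, 57 and 28 counts with the peak and 1, 0 and 73 before it. Igkv6-23 thus led with-peak replicates 1 and 3 and Igkv3-10 led with-peak replicate 2, and the counts of each differed several-fold between tumors of the same group.

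Igkv4-53 had 15, 15 and 12 counts with the peak and 1, 0 and 6 before it, the only tested V gene whose groups did not overlap (log2 fold change 2.51, SE 0.91, edgeR adjusted p = 0.437; 4.52 without before-peak replicate 3, edgeR adjusted p = 0.173). Igkv3-4 had 46, 82 and 31 counts with the peak and 0, 0 and 81 before it. Against before-peak replicates 1 and 2 alone, where it had no count, its edgeR adjusted p was 0.0465. By family, Igkv3 held 13.7%, 25.1% and 17.9% of kappa V counts with the peak and 8.14%, 11.7% and 10.3% before it, so that every with-peak tumor was above every before-peak tumor. Igkv1 held 4.30%, 5.82% and 8.29% with the peak and 11.6%, 10.4% and 9.01% before it, with the groups in the other order. Both families were picked from 18 kappa families after their values were seen. In before-peak replicates 1 and 2 Igkv3 rests on 7 and 9 counts and Igkv1 on 10 and 8, out of 86 and 77 kappa V counts. The order of the groups is therefore uncertain in both families. Igkv6, the family of Igkv6-23, overlaps, at 27.0%, 9.77% and 18.6% with the peak and 14.0%, 19.5% and 16.0% before it.

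In the heavy chain Ighv2-6-8 led with-peak replicate 1 with 27 counts (9.18% of heavy V counts), Ighv1-67 led with-peak replicate 2 with 51 (11.2%) and Ighv2-9 led with-peak replicate 3 with 30 (9.32%). Before the peak, Ighv1-63 led replicate 1 with 5 counts (20%), Ighv2-9 led replicate 2 with 6 (26.1%) and Ighv9-3 led replicate 3 with 55 (8.79%). The leading gene therefore differed in all with-peak tumors. Ighv1-67 had 3, 51 and 0 counts with the peak and 2, 0 and 19 before it. Ighv2-9 was present in every tumor, with 20, 15 and 30 counts with the peak and 2, 6 and 31 before it. Ighv8-12 had 15, 11 and 20 counts with the peak and 0, 0 and 35 before it, and Ighv9-3 had 21, 27 and 19 with the peak and 3, 0 and 55 before it.

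Of the 56 heavy V genes, 26 had a count in all with-peak tumors, and each of these also had a count in before-peak replicate 3. Of the 76 kappa V genes, 47 did so, and again all 47 had a count in before-peak replicate 3. That tumor had a count in 50 of the 56 heavy and 75 of the 76 kappa V genes, so this overlap was nearly fixed in advance. In before-peak replicates 1 and 2, 37 heavy and 28 kappa V genes had no count in either tumor. These tumors hold 25 and 23 heavy and 86 and 77 kappa V counts, so many absences follow from low counts. In lambda, Iglv1 had 73, 77 and 49 counts with the peak and 5, 0 and 86 before it. It made up 75.3%, 79.4% and 67.1% of lambda V counts with the peak, and 55.6% and 48.9% in before-peak replicates 1 and 3, while before-peak replicate 2 had Iglv3 at 57.1% on 7 counts. Iglv1 and Iglv2 were 97.1% identical, so counts may be split between them.

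The J genes carried few counts, 13, 12 and 6 with the peak and 3, 1 and 109 before it, and none passed the filter. J segments are shown because they are short, and a read over a joined exon holds J sequence next to V sequence. They are from GENCODE M21 on GRCm38, kappa on the plus strand and heavy on the minus strand. Capitals mark the 12 bases at the place of the conserved motif after CDR3. They open with a tryptophan codon (TGG) in heavy and a phenylalanine codon (TTC) in kappa J genes. Igkj3 departs from the motif, with TTCAG where the other kappa J genes have TTCGG.
Igkj1 (chr6:70722562-70722599): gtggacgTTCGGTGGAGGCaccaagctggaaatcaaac
Igkj2 (chr6:70722916-70722954): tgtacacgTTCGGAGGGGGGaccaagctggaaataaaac
Igkj3 (chr6:70723223-70723260): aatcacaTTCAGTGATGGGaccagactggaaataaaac
Igkj4 (chr6:70723548-70723585): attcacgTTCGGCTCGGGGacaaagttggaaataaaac
Igkj5 (chr6:70723886-70723923): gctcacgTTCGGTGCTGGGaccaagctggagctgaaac
Ighj3 (chr12:113429085-113429132): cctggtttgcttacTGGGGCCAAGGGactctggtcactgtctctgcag
Ighj4 (chr12:113428514-113428567): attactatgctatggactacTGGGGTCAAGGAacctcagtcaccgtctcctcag
Igkj5, which had the most counts of the kappa J genes, had 0, 0 and 1 counts with the peak and 0, 0 and 26 before it. Ighj4, which had the most of the heavy J genes, had 3, 2 and 1 counts with the peak and 2, 0 and 13 before it.

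For each 100 V counts there were 0.789, 0.634 and 0.416 J counts with the peak and 2.50, 0.935 and 3.99 before it. All before-peak tumors were above all with-peak tumors, although before-peak replicates 1 and 2 rest on 3 and 1 J counts. Gm30211, an annotated RNA gene that spans the kappa J genes and Igkc on the same strand, had 1, 8 and 3 counts with the peak and 0, 0 and 48 before it. Gm30211 was thus highest in the same tumor as the J genes. Heavy V counts for each 100 heavy constant counts were 11.9, 11.2 and 15.1 with the peak and 6.98, 8.42 and 11.3 before it.

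Genes that act with immunoglobulins in B and plasma cells gave no call at an edgeR adjusted p under 0.05 in any list, where 0% of all tested genes were called. Jchain, which joins IgA and IgM into polymers and is made by plasma cells, had 398, 356 and 350 counts with the peak and 45, 25 and 944 before it. As in Igkc, before-peak replicate 3 was highest and the other before-peak tumors lowest (log2 fold change 0.09, SE 1.41, edgeR adjusted p = 0.991; 3.42 without before-peak replicate 3, edgeR adjusted p = 0.0040). Of the plasma cell and secretion list 12 of 14 genes were tested, 7 positive and 5 negative, with a median log2 fold change of 0.10. Over all tested genes 47.7% were positive, with a median of -0.02. Derl3, a factor of protein clearance from the endoplasmic reticulum, had 14, 20 and 26 counts with the peak and 7, 4 and 12 before it (unadjusted p = 0.0478, edgeR adjusted p = 0.523).

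The B cell list had all 16 genes tested, 1 positive and 15 negative, with a median log2 fold change of -1.94, against 47.7% positive and a median of -0.02 over all genes. Without before-peak replicate 3 all 16 were positive, with a median of 1.52, but that tumor was set apart for its high level of these genes. Cd79a, a signalling chain of the B cell receptor, had 89, 53 and 121 counts with the peak and 45, 8 and 936 before it, a log2 fold change of -1.90 (SE 1.70) with an edgeR adjusted p of 0.778. Ms4a1, which encodes CD20, had 62, 36 and 95 counts with the peak and 29, 1 and 1011 before it, a log2 fold change of -2.42 (SE 1.98) with an edgeR adjusted p of 0.760. Both were highest in before-peak replicate 3.

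Set against each other, the B cell genes and the immunoglobulin genes had before-peak replicate 3 as their highest tumor but differed in the size of the gap. The B cell sum of that tumor was 742 CPM against 103 to 149 CPM with the peak, and its immunoglobulin sum was 929.7 CPM against 378 to 647 CPM with the peak. Rgs13, a germinal centre gene, had 0, 0 and 2 counts with the peak and 1, 0 and 61 before it. Nearly all of its counts were in before-peak replicate 3. In the class switching and germinal centre list 10 of 12 genes were tested, 2 positive and 8 negative, with a median of -0.30. The share over all tested genes was 47.7% positive.

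**Figure D5:**
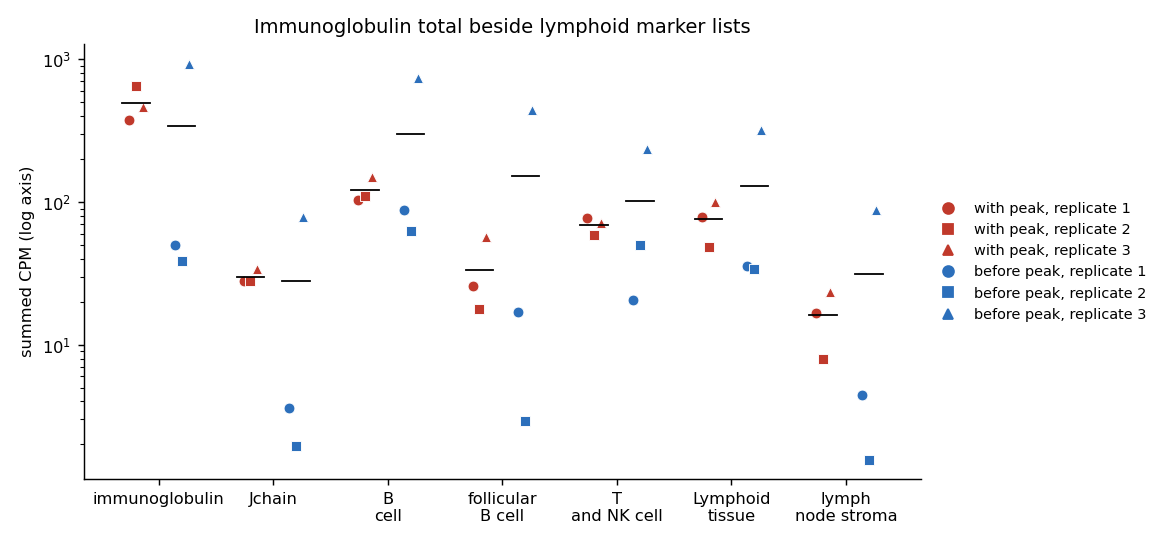
Summed CPM of the immunoglobulin genes, Jchain, and B cell, follicular B cell, T and NK cell, lymphoid tissue and lymph node stroma lists in each tumor, on a log axis, with-peak tumors in red, before-peak tumors in blue, and black bars for group means. Before-peak replicate 3 is the highest point in each column.

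Lymphoid tissue genes had 9 of 10 tested, 2 positive and 7 negative, with a median of -0.57. All 9 were positive without before-peak replicate 3 (median 1.68), a tumor set apart for its high level of such genes. For these lists the background was 47.7% positive over all tested genes, and 49.5% without that tumor. The B cell help and survival list had 8 of 12 genes tested, 3 positive and 5 negative, with a median of -0.12. Of the recombination and surrogate light chain genes 2 were tested, 1 positive and 1 negative, and Rag1 and Rag2 were not analysed here. Among immunoglobulin transport genes, 3 were tested, of which 2 were positive. Pigr, the receptor that carries IgA and IgM across epithelia, had 6, 1 and 1 counts with the peak and 77, 18 and 10 before it. All with-peak tumors were below all before-peak tumors (log2 fold change -3.69, SE 0.97, edgeR adjusted p = 0.297).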

How the data were processed

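Libraries of 6 tumors were paired-end, unstranded and made from oligo(dT)-purified RNA, per the labels' protocols. The values the authors deposited are raw counts per gene, whole numbers without normalization. FastQC, STAR and mm10 are named per the submitters' processing notes. No source used here names the counter, the annotation behind the counts or a gene filter. Of 23508 genes, 23479 matched GENCODE M21, which gave symbols, types, coordinates, lengths and sequences.

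Counts were tested with edgeR 4.0.16 in R 4.3.3: TMM, filterByExpr (minimum count 10, minimum total 15), robust quasi-likelihood fit without covariates, two-sided test over 16755 genes, Benjamini-Hochberg adjustment, threshold 0.05. The SE is the log2 fold change over the square root of F. Shares use counts per kilobase of exon with Wilson 95% intervals, and V gene identity came from Biopython 1.88 alignments. Within a group, counts of any pair of tumors differed far beyond sampling noise (chi-square over degrees of freedom 14.3 to 24.2). Alternatives were RLE size factors, library size alone, scaling without immunoglobulin genes, no filter, DESeq2 1.42.0, limma-voom 3.58.1, edgeR without robust estimation, a replicate block, and leaving out each tumor.

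The members, lists, tests and alternatives were chosen with earlier results of these data known, so no list is independent support. Named were all constant genes, the V genes with the highest mean or leading a locus in a tumor, the J genes with most counts, the 5 members with the smallest p, and a few list genes set by name or by smallest p within a list. Other genes named, Igkv3-4 and families Igkv1, Igkv3 and Igkv6 among them, were chosen after their values were seen. A gene that the naming rule takes is not reported here.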

Additional observations from a re-analysis of the deposited data

How the results depend on the processing

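The immunoglobulin genes called higher at an adjusted p under 0.05 numbered 0 with edgeR under RLE size factors, library size alone, scaling without immunoglobulin genes, no filter, no robust estimation and limma-voom, and 1 with DESeq2; none was called lower in any of these. Over all genes, those higher numbered 26 without a filter, 242 with DESeq2 and 1 with the replicate block, and those lower 3 without a filter and 24 with DESeq2. Leaving out a tumor gave 0 to 17 genes higher, and 0 to 3 immunoglobulin genes higher, the 3 without before-peak replicate 3. Same-numbered tumors did not deviate together (correlations -0.06, -0.10 and 0.03), so the block rests on numbers alone; under it 0 immunoglobulin genes were called and 51 of 55 were positive. Log2 fold changes that turned positive were, with limma-voom, Ighd 0.75, Ighm 0.76, Iglc1 1.14, Iglc2 0.43, Iglc3 0.85, Cd79a 0.25 and Ms4a1 0.80, and with the replicate block Ighd 0.45, Ighm 0.72, Iglc1 0.81 and Iglc2 0.18. Without a change of sign, Igkc was 2.24 and 2.33, Ighg1 3.07 and 2.92 and Jchain 1.88 and 1.80 with limma-voom and the replicate block. Over the fits without a tumor, log2 fold changes ran from -1.05 to 0.84 (Igha), -4.36 to 1.46 (Ighe), -2.13 to 2.22 (Ighd), -0.81 to 2.05 (Ighm), -1.20 to 3.10 (Iglc1), -1.84 to 2.03 (Iglc2), -2.27 to 1.50 (Iglc3), -0.46 to 3.42 (Jchain), -2.48 to 1.79 (Cd79a) and -3.01 to 2.17 (Ms4a1); the cause was not tested. With-peak means of V genes detected depend on the minimum: heavy 25.3 at 5 counts, 13.3 at 10 and 15.5 at the smallest total; kappa 49.7, 35.3 and 34.7. By family, the mean effective number was 7.11 for heavy with the peak, and for kappa 10.4 both with the peak and before it. The mean lambda share with the peak was 6.81% by V genes. Among switched isotypes alone, the mean Ighg1 share was 65.6% ± 16.9 with the peak and 54.4% ± 37.2 before it (SD). The before-peak tumors had 76.6%, 11.4% and 75.1%, so the mean stands for none of them. Before-peak replicates 1 and 2 hold 120 and 107 V counts, which limits any statement on their V genes.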

Other observations

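Ighv2-6-8, not tested, had 27, 10 and 6 counts with the peak and 0, 0 and 6 before it. Ighj1 was the only J gene whose highest CPM was not in before-peak replicate 3, with 7, 1 and 0 counts with the peak and 0, 1 and 0 before it. Vpreb1, a surrogate light chain gene of B cell precursors, had 7, 14 and 11 counts with the peak and 19, 16 and 27 before it, and Dntt, which adds bases at V(D)J joints, had 17, 21 and 5 counts with the peak and 6, 5 and 15 before it. Gcsam, a germinal centre gene, had 5, 11 and 21 counts with the peak and 21, 16 and 150 before it.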
